A study of Mus musculus with 6 samples.

Results

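Collagen genes were followed through 6 mouse single-cell RNA-seq libraries, 3 of cultured dendritic cells (DCs) and 3 of skin wounds treated with hydrogels. A gene was taken as a member when its symbol had the form Col, a number, the letter a and a number, and it had to be listed in all 6 count matrices. This gave 44 of 31053 genes. Cells with at least 300 genes, fewer than 100000 unique molecular identifiers (UMIs, each counting 1 captured mRNA molecule) and under 10% mitochondrial UMIs were kept.

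The study asked whether knockout of Ndrg2 changes DCs and the healing of wounds that receive them. All DCs were grown from mouse bone marrow, from wild-type C57/BL6 mice per the study's methods. The untreated DCs received no agent, the VD3 DCs received vitamin D3 (1e-06 M for 24 h from culture day 7 per the methods) and the Ndrg2-KO DCs were nucleofected with Cas9 protein and 3 guides against Ndrg2. The untreated DCs were not nucleofected, so the knockout and the handling of the cells cannot be told apart in culture. The wounds were splinted full-thickness excisions of 6 mm, explanted on day 10. Surgery was on mice 6 weeks old per the methods. The study wounded both wild-type C57BL/6J and diabetic db/db mice, and its text does not name the strain of these wound libraries. It chose day 10 from healing curves shown for wild-type wounds. The wounds received a pullulan-collagen hydrogel seeded with 500000 control DCs, one seeded with Ndrg2-KO DCs, or a blank hydrogel. The labels call the control DCs untreated, whereas the methods state nucleofection with 3 non-targeting guides. The methods give 5 mice per wound group, but each group is 1 library in which the mice are not separated. There is therefore 1 library per condition and no replicate. No test between conditions was possible, and every interval below is an exact 95% interval that covers counting error only.

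Collagens are proteins of 3 chains wound into a triple helix, and each chain is encoded by its own gene. Fibrillar collagens (types I, III and V above all) form the fibres of the dermis, type IV forms the sheet of basement membranes, type VI forms beaded filaments around cells, and the fibril-associated types bind to the surface of fibres. In healing skin the fibroblasts of the granulation tissue are known as the main makers of types I and III, while endothelial cells and keratinocytes make basement membrane and anchoring collagens. DCs are immune cells of the bone marrow lineage, best known for presenting antigen.

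The 6 libraries held 1948 to 8825 kept cells and 29675507 to 143627482 UMIs. Ndrg2 itself was at 4.62 UMIs per 1000000 (CPM) in untreated DCs, 1.42 in VD3 DCs and 0.884 in Ndrg2-KO DCs, and at 6.10, 3.33 and 3.29 CPM in the control DC, Ndrg2-KO DC and blank hydrogel wounds. These counts, taken at the 3′ end, do not show whether the gene was cut. Pairs of libraries shared 1 to 19 cell barcodes. The labelled DC cultures were mixed. Of the 7969 Ndrg2-KO cells, 4064 fell in a macrophage-like cluster and 1831 in the largest of their mature DC-like clusters. Mature DC-like cluster 2 held 2595 of the 7257 untreated cells but 24 VD3 cells. Mature DC-like cluster 1 held 3291 of the 8825 VD3 cells but 20 untreated cells. The macrophage-like cluster was named from 3 of 7 macrophage marker genes (Mrc1, Csf1r and Cd68), none of them among its 10 leading genes. In its own clustering, the paper named the cluster with most Ndrg2-KO cells as premature DCs.

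All 44 genes were found in the GENCODE M21 annotation, and none overlaps another counted gene on its own strand. In the wounds 43 of the 44 had at least 1 UMI (Col9a2 had none) and 31 reached 50 UMIs in 1 library. In the DCs 36 had a UMI, 16 reached 50 in 1 library and 8 had none. Collagens made 50050 CPM of the control DC wound library, 22575 of the Ndrg2-KO DC wound and 22654 of the blank hydrogel wound, against 15.6 CPM in untreated, 18.9 in VD3 and 23.6 in Ndrg2-KO DCs. These 3′ counts do not scale with transcript length.

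Start regions of 4 members are given here because these genes carry the patterns described below. Col3a1 and Col1a2 are among the 3 most abundant collagens of wound fibroblasts, and the patterns of Col24a1 and Col27a1 are described in cultured DCs. Each sequence holds the 120 bases before the RefSeq start and the first transcribed base on the plus strand of GRCm38.p6, and capitals mark the motif found in it (TGACGTCA, the palindromic cAMP response element; GGGCGG, a GC box; CCAAT, the CCAAT box; TATAAA, the TATA box). The positions are chr3:145292352-145292472 for Col24a1, chr4:63215292-63215412 for Col27a1, chr6:4505498-4505618 for Col1a2 and chr1:45311418-45311538 for Col3a1.
Col24a1: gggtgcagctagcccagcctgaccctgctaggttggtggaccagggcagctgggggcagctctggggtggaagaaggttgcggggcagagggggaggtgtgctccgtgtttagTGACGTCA
Col27a1: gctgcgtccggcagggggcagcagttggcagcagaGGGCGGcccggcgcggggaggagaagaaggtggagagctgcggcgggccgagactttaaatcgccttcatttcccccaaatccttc
Col1a2: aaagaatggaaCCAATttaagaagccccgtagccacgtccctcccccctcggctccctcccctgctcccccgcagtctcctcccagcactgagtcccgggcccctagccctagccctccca
Col3a1: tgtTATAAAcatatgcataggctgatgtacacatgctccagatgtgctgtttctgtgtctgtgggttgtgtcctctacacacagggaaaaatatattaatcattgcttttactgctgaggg
RefSeq gave 38 windows of 300 bases (250 before the start and 50 after) for 35 of the 44 members and 32851 windows in all. On either strand GGGCGG was in 23 of the 38 collagen windows (60.5%) and 35.7% of all windows, CCAAT in 34.2% and 37.4%, and TATAAA in 13.2% and 13.6%. TGACGTCA, searched for after the Col24a1 sequence had been read, was in 1 collagen window (2.63%) and in 1.79% of all. A match is only a match of letters in this window. The TATAAA marked in Col3a1 lies at the far upstream end of the printed bases, away from the transcription start. It is not shown to act as a TATA box. The Col4a1 and Col4a2 windows, on opposite strands of chromosome 8, overlap by 78 bases.

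In the wounds, the collagens sat mostly in fibroblast-like cells. Cells were clustered without the collagen genes and named from fixed marker lists. Pooled over the 3 wounds, collagens made 83607 CPM of the fibroblast-like cells (1355 cells), 53744 CPM of an unnamed cluster (102 cells), 9016 CPM of endothelial-like cells (56 cells), 3820 CPM of keratinocyte-like cells (130 cells) and 391 CPM of neutrophil-like cells (4900 cells). The unnamed cluster, cluster 9, was led by cell cycle genes and Crabp1, carried 2 of the 10 fibroblast markers above its threshold and had Dcn at 2953 CPM against 5822 CPM in the fibroblast-like cells. Macrophage-like, DC-like, NK cell-like and erythroid-like cells and the other 3 unnamed clusters lay between 151 and 222 CPM. Among the 33 members with at least 50 UMIs over the 3 wounds, 14 were highest in fibroblast-like cells, 9 in cluster 9, 7 in endothelial-like cells, 2 in keratinocyte-like cells and 1 (Col8a2, on 3 UMIs) in NK cell-like cells. These are pooled levels, to which the wounds gave unequal numbers of cells, and some rest on few UMIs of the cell type named, namely Col20a1 in keratinocyte-like cells (3 UMIs) and Col9a3, Col11a2 and Col28a1 in endothelial-like cells (4, 7 and 11 UMIs).

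**Figure D1:**
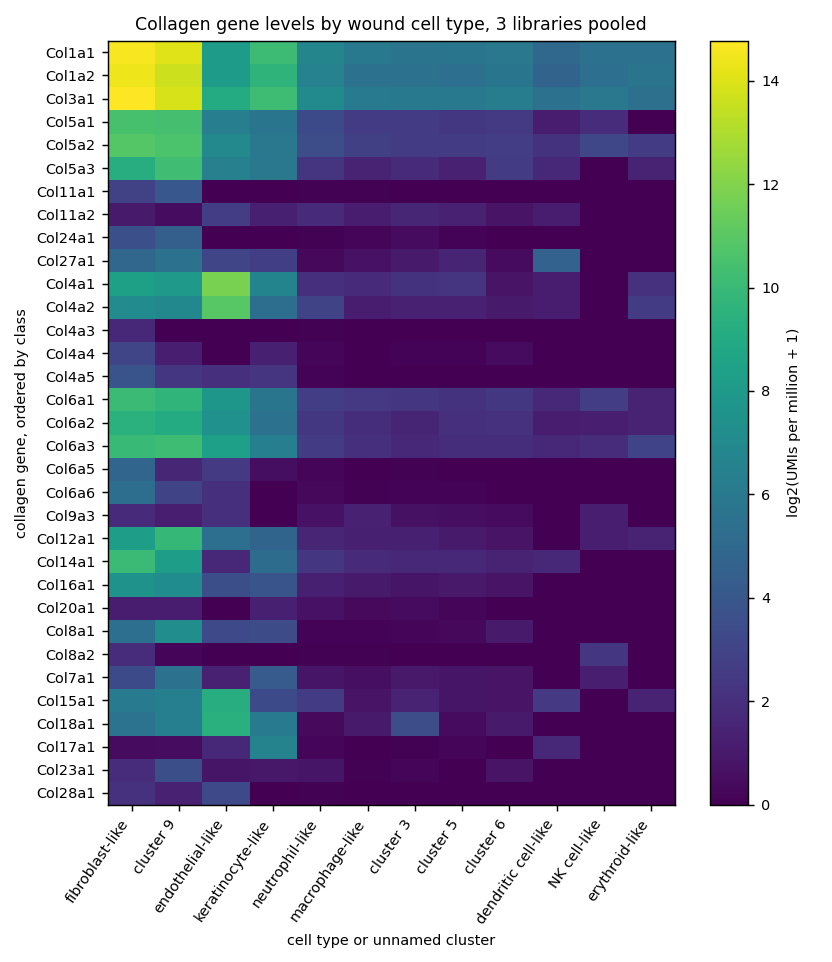
Pooled level of the collagen genes ranked in the 3 wounds (rows, ordered by class) in each wound cell type or unnamed cluster (columns), as log2(CPM + 1) by colour. Types I, III and V and the common type VI chains (Col6a1, Col6a2 and Col6a3) are brightest in fibroblast-like cells and cluster 9, Col4a1 (3583 CPM) and Col4a2 (1950 CPM) in endothelial-like cells, and Col17a1 (96.3 CPM) in keratinocyte-like cells.

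Fibrillar collagens made 93.9% of the collagen UMIs of fibroblast-like cells, type VI 3.38%, fibril-associated types 1.86% and type IV 0.598%. Col3a1, the only chain of type III, was at 28014 CPM there, Col1a1 at 25008 and Col1a2 at 21584, the last 2 being the chains of type I. Col5a2 (1870 CPM) and Col5a1 (1437 CPM), whose type V helices sit in the core of type I fibrils, were more than 10 times lower. Col14a1, a fibril-associated collagen, had 95.7% of its UMIs in fibroblast-like cells (1056 CPM, against 302 CPM in cluster 9), and Col6a1 was at 1054 CPM.

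Cluster 9 had a different mixture. Col12a1, a fibril-associated collagen, was at 929 CPM there against 314 CPM in fibroblast-like cells, and its level by wound was 446 (control DC), 559 (Ndrg2-KO DC) and 1379 CPM (blank hydrogel). Col5a3 was at 1191 against 585 CPM, Col8a1, a short-chain network collagen, at 152 against 40.7 CPM, and Col7a1, the anchoring fibril collagen, at 44.5 against 9.06 CPM. Col11a1 (15.4 against 6.62 CPM), Col24a1 (21.0 against 11.1), Col27a1 (46.7 against 28.6) and Col23a1 (10.8 against 2.71) followed the same order. These levels are pooled over the wounds, which gave cluster 9 unequal numbers of cells. By wound, in the order control DC, Ndrg2-KO DC and blank hydrogel, Col7a1 was at 43.4, 13.2 and 71.1 CPM in cluster 9 against 6.89, 2.26 and 22.7 CPM in fibroblast-like cells. Col8a1 was at 49.4, 166 and 169 CPM against 38.4, 51.1 and 29.3 CPM. Col27a1 was lower in cluster 9 than in fibroblast-like cells in the control DC wound (25.4 against 34.5 CPM) and higher in the other wounds. Only 14 of its 102 cells came from the control DC wound, with 45 from the Ndrg2-KO DC wound and 43 from the blank hydrogel wound.

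Type IV led in endothelial-like cells, where it made 61.4% of collagen UMIs and fibrillar collagens 15.7%. Col4a1 was at 3822, 2757 and 4055 CPM in the endothelial-like cells of the control DC, Ndrg2-KO DC and blank hydrogel wounds, and its partner chain Col4a2 at 1902, 1718 and 2233 CPM. Col18a1, the precursor of endostatin, was at 503, 739 and 820 CPM. Col15a1, its relative in the multiplexin class, was at 606, 644 and 531 CPM. All 4 genes were lower in fibroblast-like cells than in endothelial-like cells in each wound. These values rest on 27, 18 and 11 cells, of which 3, 5 and 3 had over 1% collagen UMIs. The summed collagen level of endothelial-like cells was 9750, 7260 and 9725 CPM in the 3 wounds in the same order. Without those cells it was 4721, 5332 and 5676 CPM. The 10 fibroblast markers summed to 187 CPM in the endothelial-like cells (1 marker at 0, and the proteoglycan gene Dcn at 11.5 CPM), against 16526 CPM in fibroblast-like, 96.2 CPM in neutrophil-like and 51.3 CPM in macrophage-like cells, and their part in these levels was not tested. The cluster also carried 5 of the 7 markers of pericytes or smooth muscle above the marker threshold, and their part in its collagen levels was not tested. The type IV share fell to 32.1% when 30 principal components were used and to 18.3% when collagens were allowed into the clustering, which changed the cells of that name to 66 and 191.

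Col17a1, a membrane-spanning collagen of the hemidesmosome, had 89.0% of its wound UMIs in keratinocyte-like cells, at 143, 138 and 43.2 CPM in the 3 wounds in the same order. Col7a1 was at 43.2, 20.3 and 3.16 CPM there (22, 13 and 3 UMIs). The summed collagen level of keratinocyte-like cells, 6192, 408 and 4844 CPM, depended on 1, 0 and 2 cells with over 1% collagen UMIs, and without them it was 967, 408 and 280 CPM. The 10 fibroblast markers summed to 703 CPM in keratinocyte-like cells (Dcn at 177 CPM), and their part in those levels was not tested.

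The low collagen UMIs of neutrophil-like and macrophage-like cells were set against the proportions of the fibroblast-like cells. The UMIs of each gene were compared with those that the fibroblast proportions would give for the same sum of Col1a1, Col1a2 and Col3a1 UMIs, which fixes the weighted mean of these 3 genes' ratios. In neutrophil-like cells the observed over this value was 0.989 for Col1a1, 0.993 for Col1a2, 1.01 for Col3a1 and 0.7996 (0.622 to 1.01) for Col14a1, and in macrophage-like cells 1.07, 0.928, 0.992 and 0.931. The part of RNA set free from lysed cells in these low levels was not tested.

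A few genes stood far above the value that the fibroblast proportions would give. Col18a1 was 105 (89.8 to 122) times above it in cluster 3, an unnamed myeloid cluster led by Mmp12 and Arg1, on 169 UMIs (10.3 CPM). Its level in cluster 3 was 0.864, 6.57 and 19.6 CPM in the control DC, Ndrg2-KO DC and blank hydrogel wounds, on 2, 55 and 112 UMIs. Col27a1, a minor fibrillar collagen, was 612 (379 to 936) times above it in DC-like cells, on 21 UMIs (24.01 CPM), of which 17 were in the blank hydrogel wound. Col11a2 was above it in neutrophil-like cells (41 UMIs, 2.38 CPM) and in cluster 3 (32 UMIs, 1.95 CPM), and Col9a3, a fibril-associated collagen chain, in macrophage-like cells (30 UMIs, 1.60 CPM). Each of these is a low level.

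Compared as whole libraries, the Ndrg2-KO DC wound held less collagen RNA than the control DC wound (log2 ratio -1.15), as did the blank hydrogel wound (-1.14), and the log2 ratio between these 2 wounds was -0.01. In the Ndrg2-KO DC wound 17 of 33 members tested were at least 2-fold lower than in the control DC wound, against 6.22% of all genes, and none was 2-fold higher (4.39% of all genes). In the blank hydrogel wound 15 of 32 were at least 2-fold lower (3.89% of all genes) and 1, Col7a1, higher (3.71%). Against the blank hydrogel wound, the Ndrg2-KO DC wound had 4 of 33 members lower (2.01% of all genes) and 1 higher (1.75%). Fibroblast-like cells were 501 of 1948 cells in the control DC wound, 517 of 5681 in the Ndrg2-KO DC wound and 337 of 3403 in the blank hydrogel wound. In a whole library fewer fibroblasts and less collagen RNA per fibroblast cannot be told apart, so the wounds were compared within fibroblast-like cells.

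Within fibroblast-like cells the difference was much smaller. The summed collagen level was 93444 CPM (93290 to 93597) in the control DC wound, 76850 (76699 to 77002) in the Ndrg2-KO DC wound and 76417 (76234 to 76600) in the blank hydrogel wound. The log2 ratio to the control DC wound was -0.28 for the Ndrg2-KO DC wound and -0.29 for the blank hydrogel wound, and between these 2 wounds it was 0.01. Of the members tested (at least 50 UMIs over both wounds), 22 of 30 were lower in the Ndrg2-KO DC wound than in the control DC wound, with a median log2 ratio of -0.28 against 0.07 over all 11100 genes tested. For the blank hydrogel wound 21 of 29 were lower, with a median of -0.35 against 0.02. Both comparisons share the control DC library.

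Of the type I and III chains, Col1a1 differed most from the control DC wound. It was at 29344 CPM in the control DC wound, 21168 in the Ndrg2-KO DC wound and 23099 in the blank hydrogel wound (log2 -0.47 and -0.35 to control). Col1a2 was at 24194, 20123 and 19194 CPM, and Col3a1 at 29756, 27231 and 26139 CPM. The control DC wound was highest for all 3 genes. The ratio of Col3a1 to Col1a1 UMIs was 1.01 (1.01 to 1.02) in the control DC wound, 1.29 (1.28 to 1.29) in the Ndrg2-KO DC wound and 1.13 (1.12 to 1.14) in the blank hydrogel wound, so Col3a1 was highest relative to Col1a1 in the Ndrg2-KO DC wound. The ratio of the 2 type I chains, Col1a1 to Col1a2, was 1.21, 1.05 and 1.20. Col5a2 was at 2126, 1701 and 1673 CPM, Col5a1 at 1605, 1359 and 1260, and Col5a3 at 688, 533 and 482, each highest in the control DC wound.

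**Figure D2:**
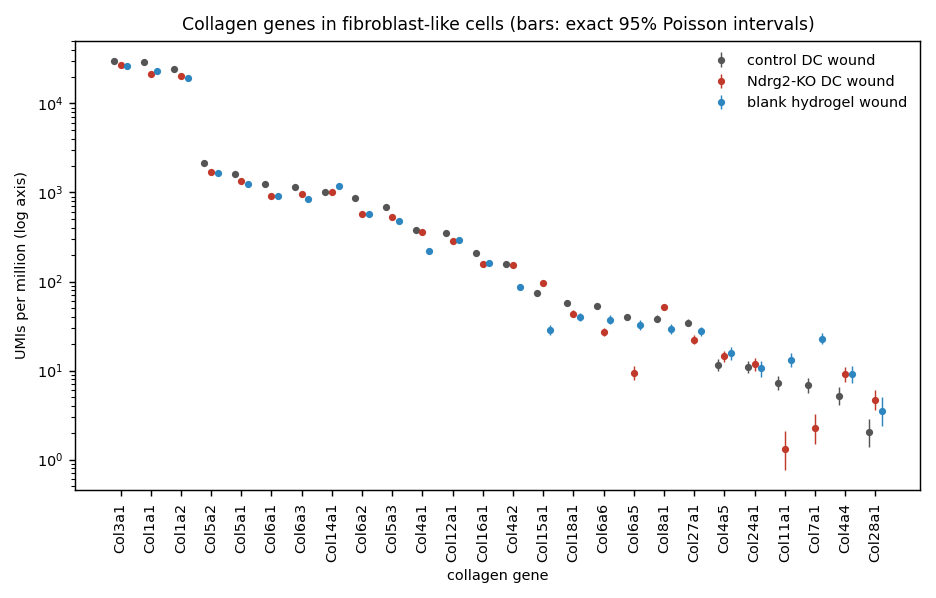
Level of each collagen gene in the fibroblast-like cells of the 3 wounds (vertical log axis, CPM; genes ordered by level; points are the library values and bars their exact 95% Poisson intervals). The 3 wounds lie close together for the abundant chains, and Col11a1, Col7a1 and Col6a5 are lowest in the Ndrg2-KO DC wound (1.33, 2.26 and 9.35 CPM).

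The type VI chains followed, with the 3 common ones highest in the control DC wound. Col6a1 was at 1242, 924 and 917 CPM in the control DC, Ndrg2-KO DC and blank hydrogel wounds, Col6a2 at 867, 570 and 581 and Col6a3 at 1152, 959 and 844. The alternative chain Col6a5 was at 39.8, 9.35 and 32.5 CPM, a log2 ratio of -2.09 (-2.39 to -1.81) between the Ndrg2-KO DC and control DC wounds and -1.80 between the Ndrg2-KO DC and blank hydrogel wounds. Col6a6 was at 52.6, 27.4 and 37.4 CPM. Col6a5 and Col6a6 lie close to each other on chromosome 9 and were both lowest in the Ndrg2-KO DC wound.

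Among the basement membrane chains, the levels of Col4a1 and Col4a2 differed widely between sub-clusters of the fibroblast-like cells (described below). Pooled over the wounds, Col4a1 was at 1094 CPM in sub-cluster 4, 1996 CPM in sub-cluster 5 and 652 CPM in sub-cluster 3. Col4a2 was at 449, 933 and 258 CPM in the same order. Sub-cluster 4 made 10.4% of the fibroblast-like cells in the control DC wound, 8.12% in the Ndrg2-KO DC wound and 5.64% in the blank hydrogel wound. Over all fibroblast-like cells, Col4a1 was at 378 CPM in the control DC wound, 364 in the Ndrg2-KO DC wound and 218 in the blank hydrogel wound, and Col4a2 at 159, 154 and 86.3 CPM. The Ndrg2-KO DC and control DC wounds were near each other for both (log2 -0.05 and -0.04), but without sub-cluster 3, found only in the Ndrg2-KO DC wound, that wound was at 248 CPM for Col4a1 and 112 CPM for Col4a2, below control (-0.61 and -0.50). The blank hydrogel wound was lower than control for both (-0.79 and -0.88). Col15a1 was at 73.9, 95.6 and 28.8 CPM (blank hydrogel against control -1.36, Ndrg2-KO DC against blank hydrogel 1.73). Col18a1 was at 57.9, 43.7 and 39.8 CPM, with the control DC wound highest. The minor type IV chain Col4a3 was at 1.05, 2.96 and 2.84 CPM, on 16 UMIs in the control DC wound and 38 in the Ndrg2-KO DC wound.

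Past a 2-fold difference, 3 members were lower in the Ndrg2-KO DC wound than in the control DC wound (Col11a1, Col6a5 and Col7a1, with 1.59% of all genes lower) and 2 were higher (Col4a3 and Col28a1, with 4.12% higher). Without the fibroblast sub-cluster found only in the Ndrg2-KO DC wound (sub-cluster 3, described below) neither of the 2 was 2-fold higher, at log2 ratios of 0.64 for Col4a3 (15 and 16 UMIs in the Ndrg2-KO DC and control DC wounds) and 0.69 for Col28a1 (30 and 31 UMIs), and Col6a6 was also past 2-fold lower (-1.28). Against the blank hydrogel wound the Ndrg2-KO DC wound had 4 lower (Col11a1, Col6a5, Col7a1 and Col23a1, with 1.28% of all genes lower) and 1 higher (Col15a1, with 2.63% higher). Without sub-cluster 3 Col23a1 was no longer 2-fold lower (-0.66) and Col8a1 was 2-fold higher (1.26). The blank hydrogel wound had Col7a1 higher (2.03% of all genes) and Col15a1 and Col8a2 lower (1.21% of all genes) than the control DC wound. The genes past 2-fold were mostly low ones. In either direction 5 of 30, 3 of 29 (blank hydrogel against control) and 5 of 29 (Ndrg2-KO DC against blank hydrogel) passed 2-fold, against 5.71%, 3.25% and 3.9% of all genes. A 1.5-fold limit gave 10, 8 and 8 members in the same order, against 16.2%, 8.38% and 13.7% of all genes, and requiring 200 UMIs left 1 of the 5 in the first comparison.

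Col7a1 was at 6.89 CPM (control DC), 2.26 CPM (Ndrg2-KO DC) and 22.7 CPM (blank hydrogel) in fibroblast-like cells. The log2 ratio was -1.61 (-2.25 to -1.003) for the Ndrg2-KO DC and 1.72 (1.38 to 2.08) for the blank hydrogel wound against control, and -3.33 (-3.95 to -2.76) between these 2 wounds. Col11a1, a minor fibrillar chain, was at 7.28, 1.33 and 13.2 CPM. Of its 244 UMIs in fibroblast-like cells, 55 were in the 12 cells of sub-cluster 7, which carried Schwann cell markers, and within sub-cluster 1 (both described below) the blank hydrogel and control DC wounds were close, at 23.5 and 22.8 CPM. Col8a1 was at 38.4, 51.1 and 29.3 CPM, highest in the Ndrg2-KO DC wound. Col14a1 was at 1012, 1018 and 1188 CPM, Col24a1 at 10.9, 11.8 and 10.6 CPM and Col12a1 at 354, 282 and 291 CPM. For Col14a1 the blank hydrogel wound was thus the highest. Col16a1 was at 210, 158 and 162 CPM, Col27a1 at 34.5, 22.3 and 27.5 CPM, Col4a5 at 11.5, 14.5 and 15.7 CPM and Col4a4 at 5.18, 9.04 and 9.10 CPM. Col28a1 was at 2.03, 4.68 and 3.53 CPM, Col8a2 at 3.22, 3.04 and 1.14 CPM and Col23a1 at 3.02, 1.72 and 3.64 CPM. Sub-cluster 7 also held 25 Col28a1 UMIs, at 191 CPM, against at most 13.4 CPM in any other sub-cluster.

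The fibroblast-like cells were not 1 population. Clustered on their own, again without collagens, they gave 8 sub-clusters, and collagen levels differed more between sub-clusters than between wounds. Sub-cluster 1, with Prss35, C1qtnf3, Mdk, Mfap4 and Postn among its leading genes, had 134917 CPM of collagen in the control DC wound, 105473 in the Ndrg2-KO DC wound and 109132 in the blank hydrogel wound (145, 75 and 69 cells). Sub-cluster 0, with Timp1, Inhba and Cxcl5, had 103679, 93291 and 90129 CPM (126, 141 and 84 cells). Sub-cluster 2, with Scara5 and Pcolce2, had 43913 CPM in the control DC and 44601 CPM in the blank hydrogel wound (137 and 110 cells), and only 14 cells of the Ndrg2-KO DC wound. Sub-cluster 3, with Pgr, Ngfr and Greb1, had 141 cells, all of the Ndrg2-KO DC wound, and 64013 CPM. As a cluster of 1 library it may be that library and not a kind of cell, and 4 erythroid markers were at least 2-fold higher in it. Sub-cluster 4, with Cfd, Lepr and Fabp4, had 56335, 53964 and 48400 CPM in the control DC, Ndrg2-KO DC and blank hydrogel wounds (52, 42 and 19 cells). Sub-clusters 5, 6 and 7 carried markers of pericytes and muscle, of macrophages and of Schwann cells.

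**Figure D3:**
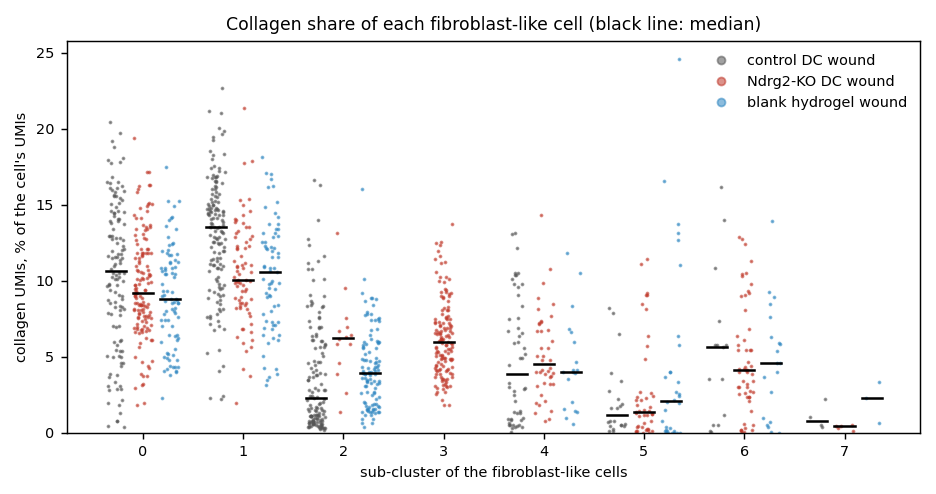
Share of each fibroblast-like cell's UMIs that were collagen (vertical axis, percent), by sub-cluster (horizontal axis) and wound (colours), with 1 point per cell and black lines at medians. Over all sub-clusters the medians were 8.14% in the control DC wound, 6.95% in the Ndrg2-KO DC wound and 5.94% in the blank hydrogel wound, and sub-cluster 3 holds cells of the Ndrg2-KO DC wound only.

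Within sub-cluster 1 the log2 ratio of summed collagen was -0.36 for the Ndrg2-KO DC and -0.31 for the blank hydrogel wound against control, and within sub-cluster 0 it was -0.15 and -0.20. Within sub-cluster 2 the blank hydrogel wound did not lie below control (0.02). Leaving out sub-cluster 3 took the overall ratio for the Ndrg2-KO DC wound from -0.28 to -0.19. This takes 27.3% of the fibroblast-like cells from that wound only, while the control DC wound keeps 137 cells of low-collagen sub-cluster 2. The Ndrg2-KO DC wound has 14 such cells, so the makeups compared stay unlike. The same holds for the single genes given without sub-cluster 3. Cells with over 10% collagen were 40.9% of the fibroblast-like cells in the control DC wound, 24.4% in the Ndrg2-KO DC wound and 24.04% in the blank hydrogel wound. Cells with under 1% were also most frequent in the control DC wound, at 15.0% against 5.996% and 8.01%. The control DC wound was thus the widest in collagen content per cell. The median depth of these cells was 28898, 25364 and 26407 UMIs.

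The low collagens of the Ndrg2-KO DC wound were also low inside sub-cluster 1. Col7a1 was at 19.5, 1.68 and 97.7 CPM there (88, 3 and 183 UMIs in the control DC, Ndrg2-KO DC and blank hydrogel wounds), Col11a1 at 22.8, 5.05 and 23.5 CPM, Col6a5 at 67.8, 17.4 and 39.5 CPM and Col6a6 at 83.6, 20.2 and 56.1 CPM. Sub-cluster 1 held most Col7a1 and Col11a1 of the fibroblast-like cells in the control DC wound. Type IV behaved differently. In sub-cluster 0 Col4a1 was at 195 CPM in the control DC wound and 81.9 CPM in the Ndrg2-KO DC wound, whereas in sub-cluster 3, which only the latter had, it was at 652 CPM. Sub-clusters 4 and 5, with cells of all 3 wounds, were higher still, at 1094 and 1996 CPM pooled. The near equality of Col4a1 over all fibroblast-like cells thus joined sub-clusters that differed. Col15a1 in sub-cluster 1 was at 90.02, 67.9 and 23.5 CPM, and at 135 CPM in sub-cluster 3. Its highest level was in sub-cluster 4, at 312 CPM pooled over the wounds (837 UMIs). Col8a1 in sub-cluster 0 was at 19.6, 63.9 and 41.0 CPM.

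Genes that serve collagens were counted in lists by role. Of 12 folding and export genes, 12 were tested in fibroblast-like cells and 1 was at least 2-fold higher in the Ndrg2-KO DC than in the control DC wound. This was Plod2, a lysyl hydroxylase (396 against 173 CPM), and over all genes 4.12% were at least 2-fold higher and 1.59% lower in this comparison. Serpinh1, the collagen chaperone, was at 1978 against 1749 CPM and Ppib, a prolyl isomerase, at 995 against 636 CPM, and the median log2 ratio of the list was 0.19 against 0.07 over all genes. Of 9 cleavage and crosslinking genes none passed 2-fold in either direction (median 0.13), with Lox at 908 against 858 CPM and Pcolce at 939 against 674 CPM. Of 8 receptors 5 were tested and 1 was lower, the integrin chain Itga11 (22.5 against 45.8 CPM), with Ddr2 at 174 against 233 CPM. Of 7 breakdown and uptake genes 2 were higher, the collagenases Mmp13 (27.1 against 5.51 CPM) and Mmp8 (6.31 against 0.722 CPM), while Mmp2 (1242 against 1674 CPM) and Ctsk (386 against 666 CPM) were at lower values. Mmp13 was at 979 CPM in cluster 3 of the Ndrg2-KO DC wound against 196 CPM in that of the control DC wound, and Mmp8 at 234 against 121 CPM. The part of free myeloid RNA in the fibroblast values was not tested. In the blank hydrogel wound against control, 1 gene of the 4 lists passed 2-fold, Mmp13, which was lower (1.93 CPM, with 1.21% of all genes lower).

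In cultured DCs collagens were rare. The summed level was 15.6 CPM in untreated, 18.9 in VD3 and 23.6 CPM in Ndrg2-KO DCs. Col27a1 gave 1003 of 2065 collagen UMIs in untreated DCs, 1383 of 2199 in VD3 DCs and 441 of 3385 in Ndrg2-KO DCs. Col24a1 gave 3, 3 and 1662. Both encode minor fibrillar collagens that form a branch of their own within the fibrillar family. Of the type I and III UMIs of untreated DCs, nearly all were in 1 cell of 58539 UMIs, which also had 121 Dcn UMIs. It held all 55 Col3a1 and all 123 Col1a2 UMIs, 86 of 87 Col1a1 and 18 of 63 Col5a1 UMIs, and without it the summed level was 13.0 CPM.

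**Figure D4:**
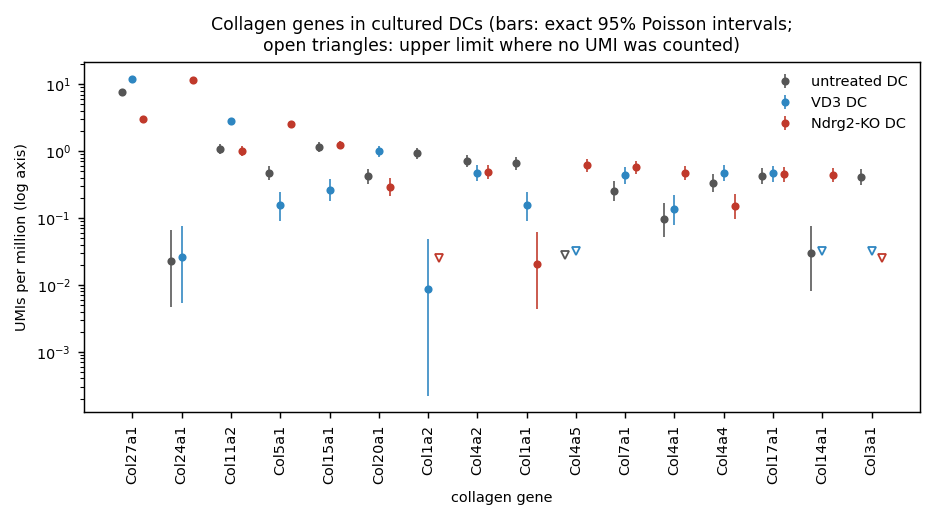
Level of the collagen genes with at least 50 UMIs in 1 culture (vertical log axis, CPM) in untreated, VD3 and Ndrg2-KO DCs, with exact 95% Poisson intervals and open triangles at the upper limit where no UMI was counted. Col24a1 is at 11.6 CPM in Ndrg2-KO DCs and below 0.1 CPM in the others, and Col27a1 is highest in VD3 DCs (11.9 CPM) and lowest in Ndrg2-KO DCs (3.07 CPM).

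Col24a1 was singled out with this pattern known, so its values are a description. The gene lies on chromosome 3 from 145292472 to 145552011 on the plus strand (GRCm38). It was at 0.0226 CPM in untreated DCs, 0.0258 CPM in VD3 DCs and 11.6 CPM in Ndrg2-KO DCs. The ratio of Ndrg2-KO to untreated DCs was 511 (175 to 2482) and that to VD3 DCs 449 (153 to 2181). No ratio is given between untreated and VD3 DCs, which had 3 UMIs each. In cells under 5% mitochondrial UMIs the log2 ratio to untreated DCs was lower, at 7.36 against 8.998 in all kept cells. That to VD3 DCs, which then had no UMI, had a lower bound of 6.001 against 8.81. The UMIs of the Ndrg2-KO DCs were spread over 1153 cells, with at most 8 in 1 cell. The only counted gene overlapping Col24a1, on the other strand, had 0, 0 and 2 UMIs. When every cell was thinned to 2000 UMIs, 151 of 7835 Ndrg2-KO cells (1.93%, 1.63 to 2.26) had a Col24a1 UMI, against 0 of 6785 untreated cells (up to 0.0544%) and 0 of 7676 VD3 cells (up to 0.0480%). At full depth the shares were 14.5%, 0.0413% and 0.0340%.

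Within the Ndrg2-KO culture Col24a1 followed the cell clusters. The macrophage-like cluster 0 had 1244 UMIs, or 14.9 CPM (14.1 to 15.8), and the cycling cluster 10 had 384 UMIs, or 13.6 CPM (12.3 to 15.1). The mature DC-like cluster 5 had 28 UMIs, or 1.18 CPM (0.787 to 1.71). The high clusters were also nearly absent from the other cultures, with 5 untreated and 1 VD3 cell in cluster 0 and 2 and 0 in cluster 10. In clusters 0 and 10 cluster and knockout library can therefore not be told apart. Elsewhere in their culture Ndrg2-KO cells had 0 UMIs in cycling cluster 6 (137 cells, upper limit 1.64 CPM), 1 UMI in mature DC-like cluster 2 (155 cells, 0.710 CPM) and 2 UMIs in the unnamed cluster 11 (424 cells, 0.528 CPM), and untreated cells of clusters 6 and 2 had 0 and 1 UMI. Clusters 3 and 12 of the Ndrg2-KO DCs, with 112 and 121 cells, had too few UMIs in all to place the level (1 UMI, 0.0999 to 21.98 CPM, and 0 UMIs, upper limit 9.21 CPM). The macrophage-like clusters of the other cultures, cluster 7 of VD3 DCs and cluster 9 of untreated DCs, had 3 UMIs or fewer. Across the 25 groups of at least 50 cells of 1 library in 1 cluster, the genes with the pattern most like Col24a1 among 12917 were Stra6l, Kitl and Mamdc2 (Pearson r of log2(CPM + 1) 0.96 each), Colec12 (0.95) and Lgi3 (0.93). These groups share 3 libraries. Among the other collagens with at least 100 UMIs over the 3 cultures Col5a1 came nearest (0.76). In the wounds 410 of 526 Col24a1 UMIs were in fibroblast-like cells and 105 in cluster 9.

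**Figure D5:**
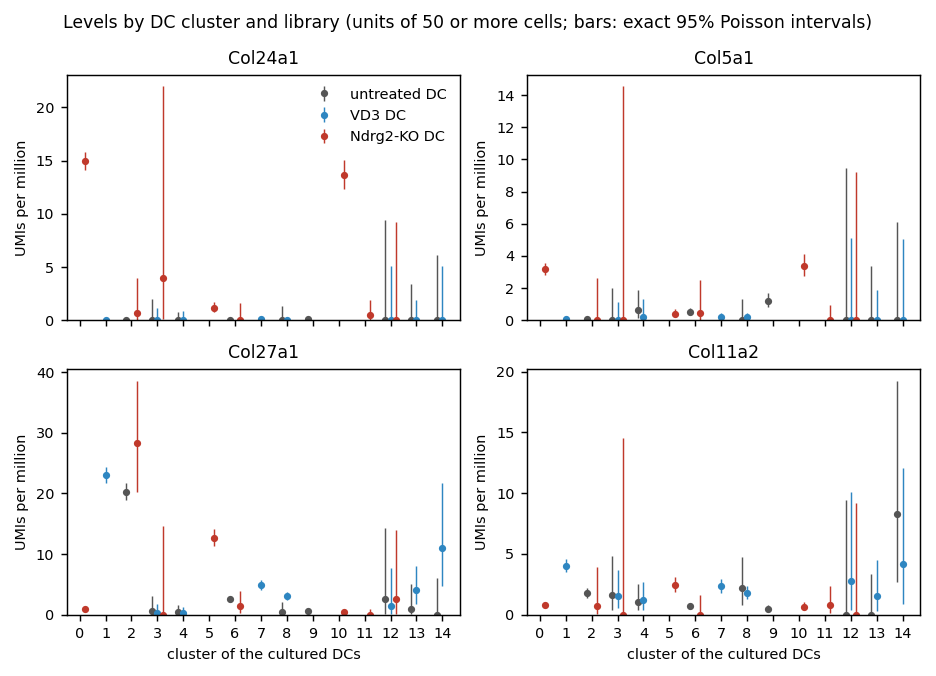
Levels of Col24a1, Col5a1, Col27a1 and Col11a2 (vertical axes, CPM, with exact 95% Poisson intervals) in each cluster of the cultured DCs (horizontal axis) by library, for groups of at least 50 cells. Col24a1 and Col5a1 are highest in clusters 0 and 10 of Ndrg2-KO DCs (14.9 and 13.6 CPM for Col24a1), and Col27a1 in mature DC-like clusters 2 (28.4 CPM in Ndrg2-KO and 20.3 CPM in untreated DCs) and 1 (23.1 CPM in VD3 DCs).

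Past 2-fold, 7 of 18 members tested were higher in Ndrg2-KO than in untreated DCs, against 10.2% of all genes, and 6 were lower, against 9.28% (19.5% in either direction). Without the 1 collagen-rich untreated cell these were 7 and 3 of 15. The 7 higher ones were Col24a1, Col5a1, Col4a5, Col14a1, Col4a1, Col9a3 and Col7a1. Against VD3 DCs, Ndrg2-KO DCs had 6 of 14 higher (13% of all genes) and 4 lower (9.21%, or 22.2% in either direction). VD3 DCs had 2 of 13 members higher than untreated DCs (4.18% of all genes), Col11a2 and Col20a1, and 6 lower (7.44%, or 11.6% in either direction). Without the collagen-rich cell, 10 members were tested and 3 were lower.

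Col5a1 had 63 UMIs in untreated (45 without the collagen-rich cell), 18 in VD3 and 370 in Ndrg2-KO DCs, so Ndrg2-KO DCs were 5.42 (4.14 to 7.199) times higher than untreated and 16.7 (10.4 to 28.4) times higher than VD3 DCs. Like Col24a1 it was highest in clusters 0 (3.16 CPM) and 10 (3.37 CPM) of the Ndrg2-KO DCs and low in their mature DC-like cluster 5 (0.381 CPM). Col4a5, an X-linked type IV chain, had 0, 0 and 88 UMIs and was at least 27.1-fold higher in Ndrg2-KO than in untreated DCs and at least 23.8-fold higher than in VD3 DCs, against a floor of 3 UMIs per library. Col14a1 had 4, 0 and 64 UMIs, which made it 14.8 (5.50 to 55.9) times higher in Ndrg2-KO than in untreated DCs. Col4a1 had 13, 16 and 68 UMIs (4.83 times, 2.64 to 9.53, over untreated), while its partner Col4a2 had 96, 55 and 70. The 2 chains of the common type IV helix thus did not move together in culture. Col7a1 had 34, 51 and 83 UMIs and Col9a3 17, 31 and 49.

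Col27a1 went the other way and was highest in some of the mature DC-like clusters. Its level was 7.57 CPM in untreated, 11.9 in VD3 and 3.07 in Ndrg2-KO DCs, 2.46 (2.201 to 2.76) times higher in untreated and 3.87 (3.47 to 4.31) times higher in VD3 than in Ndrg2-KO DCs. Within mature DC-like clusters it was at 20.3 CPM in untreated DCs (cluster 2), 23.1 CPM in VD3 DCs (cluster 1), and 12.6 (cluster 5) and 28.4 CPM (cluster 2) in Ndrg2-KO DCs. Mature DC-like cluster 12 was an exception, with 1 Col27a1 UMI in each culture (2.56, 1.39 and 2.50 CPM on 72, 170 and 121 cells of untreated, VD3 and Ndrg2-KO DCs). In the macrophage-like cluster 0 of the Ndrg2-KO DCs it was at 0.997 CPM. Differences between whole cultures and the makeup of the cultures cannot be told apart here. In the DC-like cells of the wounds Col27a1 was also above the value given by the fibroblast proportions.

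Col11a2, a fibrillar chain best known from cartilage, had 143, 332 and 145 UMIs in untreated, VD3 and Ndrg2-KO DCs and was highest in VD3 DCs, 2.64 (2.17 to 3.24) times above untreated. In mature DC-like clusters it was at 1.77 CPM (untreated, cluster 2), 4.01 CPM (VD3, cluster 1) and 2.41 CPM (Ndrg2-KO, cluster 5). Col20a1, a fibril-associated collagen, had 56, 117 and 42 UMIs. Col15a1 had 153, 31 and 178 UMIs and was lowest in VD3 DCs. Col23a1, a membrane-spanning collagen, had 44, 12 and 7 UMIs, Col4a4 45, 55 and 22, and Col17a1 57, 54 and 65, with untreated and Ndrg2-KO DCs within 1.05 (0.726 to 1.53) times of each other for Col17a1.

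Of the helper genes in DCs, 2 of 10 folding and export genes tested were at least 2-fold higher in Ndrg2-KO than in untreated DCs, the prolyl hydroxylase chains P4ha1 (40.8 against 17.6 CPM) and P4ha2 (1.35 against 0.151 CPM), and none was lower. Over all genes 10.2% were higher and 9.28% lower in this comparison. Of 5 cleavage and crosslinking genes tested, 3 were higher (Loxl3, Loxl2 and Pcolce) and 1 lower (Bmp1). None of 4 receptors passed 2-fold. Of 6 breakdown and uptake genes 4 were higher, namely Mmp13 (64.1 against 2.68 CPM), Ctsk (16.1 against 1.97 CPM), Mmp9 (32.3 against 7.63 CPM) and Mmp8 (430 against 183 CPM). The Mmp8 level exceeded the summed collagen level in both cultures.

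The remaining 12 members stayed under 50 UMIs in every library. They are Col2a1, Col4a3, Col4a6, Col6a4, Col9a1, Col9a2, Col10a1, Col13a1, Col19a1, Col22a1, Col25a1 and Col26a1. Apart from Col4a3, whose highest count was 38, none exceeded 11 UMIs in any library. Col2a1, the main collagen of cartilage, had 0 to 3 UMIs per library, and Col10a1, a collagen of hypertrophic cartilage, 0 to 4.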

How the data were processed

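The deposited UMI counts per gene and cell barcode were made by the authors with Cell Ranger (3.1.0 for the cultured DCs and 6.0.0 for the wounds, per the file headers), and the files hold only called cells. The labels name build mm9, while the study's methods name mm10 and 3′ chemistry. Every deposited value was a whole number. The cell filter followed the methods, whose 300 unique transcripts were read here as 300 genes. Reading them as 300 UMIs was an alternative, and it gave 2745 erythroid-like wound cells against 75. Rows of features that are not mouse genes held 1 UMI in all.

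Counts were summed over the kept cells of a library and type and divided by all UMIs of those cells, giving CPM. Intervals are exact (Poisson for CPM, binomial for shares and for ratios) and cover counting error only. No count model was fitted, since each condition has 1 library. A member was tested in a comparison, that is set against a 2-fold limit, with at least 50 UMIs over both sums. Ratios against 0 UMIs used a floor of 3 UMIs. Shares of cells were taken after thinning cells to 2000 UMIs, and shallower cells were left out (472 untreated, 1149 VD3 and 134 Ndrg2-KO).

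Cells were clustered separately for wounds and cultures in Seurat 5.3.0 (R 4.3.3) on 2000 variable genes without collagens, 15 principal components, 15 neighbours and resolution 0.5. A cluster took the name of a marker list with at least 3 markers at 50 CPM or more and 2-fold above the other clusters, unless its leading genes spoke for another list. Scrublet (scanpy 1.11.5) marked at most 0.873% of a library, which is too few to trust, so no doublet was removed, and leaving out the 6% of cells with the highest scores was an alternative. Sums and intervals were computed in Python 3.11.15 with scipy 1.17.1, and the calculations were checked on simulated counts.

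Members with at least 50 UMIs in 1 library or cell type are given with their values, the others by counts. From each helper list the genes with the most UMIs are named, and genes past 2-fold in a list were named after their values were seen. The members, lists and comparisons were chosen with earlier results of these data known. The series' design text speaks of circulating GFP+ cells from joined mice, which neither the sample labels nor the methods describe for these libraries.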

Additional observations from a re-analysis of the deposited data

Results flagged for a closer look

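Sub-clusters of the fibroblast-like cells were compared between wounds where both had at least 50 cells in them. In 2 of these comparisons the summed collagen difference between wounds had another sign than over all fibroblast-like cells. Between the Ndrg2-KO DC and blank hydrogel wounds the log2 ratio was 0.01 over all fibroblast-like cells and -0.049 within sub-cluster 1, with Postn among its leading genes. Between the blank hydrogel and control DC wounds it was -0.29 over all fibroblast-like cells and 0.022 within sub-cluster 2, with Scara5 among its leading genes. With 1 library per wound these differences were not tested.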

How the results depend on the processing

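Of 93 alternatives over 16 results, 46 stayed within the counting interval or within 1.5 times the count, 44 moved further and 3 reversed. The cause of each move was not tested. All summed values are log2 ratios in fibroblast-like cells. For Ndrg2-KO DC against control DC wounds (-0.28) they were -0.32 with all deposited barcodes, with at least 300 UMIs and with collagens in the clustering, -0.29 at resolution 1.0, -0.18 as a mean over cells, -0.35 with median-ratio scaling, -0.19 without the sub-cluster of 1 wound and -0.24 without sub-clusters with markers of other cell types. Within sub-clusters 0 and 1 they were -0.15 and -0.36. For blank hydrogel against control DC wounds (-0.29) the values were -0.47, -0.43 and -0.42 for the first 3 settings, -0.34 without doublets, -0.38 at resolution 1.0, -0.31 with 30 principal components and with median-ratio scaling, and -0.30 without other cell types. Within sub-clusters 0, 1 and 2 they were -0.20, -0.31 and 0.022. For Ndrg2-KO DC against blank hydrogel wounds (0.01) they were 0.15, 0.11 and 0.10 for the first 3 settings, 0.054 without doublets, 0.091 at resolution 1.0, 0.024 with 30 principal components, 0.11 as a mean over cells, -0.052 with median-ratio scaling, 0.10 without the sub-cluster of 1 wound and 0.059 without other cell types. Within sub-clusters 0 and 1 they were 0.050 and -0.049. Counts of members past 2-fold (5, 3 and 5 in these comparisons) became 10, 8 and 8 at 1.5-fold, and 1 (first) and 3 (last) with at least 200 UMIs. Among members, 6 of 30, 9 of 29 and 15 of 29 changed sign in at least 1 of 10 settings.

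The fibroblast-like over neutrophil-like collagen level (log2 7.74) was 7.69 with collagens in the clustering. The type IV share of endothelial-like cells (61.4%) was 63.3% at resolution 1.0, 32.1% with 30 principal components, 18.3% with collagens in the clustering and 66.8% without doublets. For Col24a1, cells under 5% mitochondrial UMIs gave a log2 ratio of 7.36 (8.998 before) between Ndrg2-KO and untreated DCs and a lower bound of 6.001 (8.81 before) against VD3 DCs, which then had no UMI, and they were 21.6% of the Ndrg2-KO cells. Its share of Ndrg2-KO cells was 1.93% thinned and 14.5% at full depth. Members past 2-fold in VD3 against untreated DCs were 8, and 5 without 1 collagen-rich cell.

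No paired analysis was possible because each condition has 1 library. The leaving out of replicates was likewise not possible. Low members such as Col7a1 rest on few UMIs, and no difference between wounds can be set against the spread between mice.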
